A study of Drosophila melanogaster with 6 samples.

Results

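The odorant binding protein (Obp) genes of *Drosophila melanogaster* were followed in the pupal eye between 21 and 40 h after puparium formation (APF). Members were all genes of the table whose symbol starts with Obp and a digit, which gave 49 of 17649 genes. The BDGP6 annotation of Ensembl (release 115) lists 51 such genes, and Obp50c and Obp57d were not analysed here. Each of the 49 was matched to the annotation by its FlyBase identifier.

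RNA was sequenced from whole eyes dissected from *Canton S* pupae, a wild-type laboratory strain, with no transgene or treatment at either stage. There were 3 biological replicates at 21 h APF and 3 at 40 h APF, and each library pooled the eyes of many pupae. At the earlier stage the cells of the eye are still being patterned, and at the later stage they are arranged in their final lattice. Levels are FPKM, the number of sequenced fragments of a gene scaled to its transcript length and to the size of the library, and the table holds 1 value per gene and stage, pooled by the authors over the replicates. The spread between replicates is therefore unknown here, no difference could be tested, and the sequencing depth behind a value is unknown from the table.

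Odorant binding proteins are small secreted proteins, mostly held together by conserved disulfide bonds, that carry hydrophobic molecules in a pocket. They are best known from the antenna and the taste organs, where non-neuronal support cells release them into the fluid around the sensory neurons. Many family members are made in other tissues, including fat body, glia and the reproductive tract, where their ligands are less well known.

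A few of the genes had a high level and most were listed under 1 FPKM. At least 1 FPKM at either stage was reached by 11 of 49 Obp genes (22.4%), against 55.7% of all genes. At least 10 FPKM was reached by 6 of 49, Obp44a, Obp56a, Obp99a, Obp99b, Obp99c and Obp83g, against 38.9% of all genes. Both stages were listed at 0 for 18 Obp genes (36.7%), against 17.7% of all genes. All genes here include short noncoding ones, among them many tRNA genes listed at 0, whereas every Obp gene encodes a protein. The shares over all genes are therefore not those of protein-coding genes alone. A listed 0 need not mean that a gene was silent. Genes for kinds of RNA that every cell uses, such as mt:lrRNA (mitochondrial ribosomal RNA) and the spliceosomal snRNA:U4:38AB, were also listed at 0 at both stages. Both were looked up after the values were seen. Neither is a messenger RNA, so they do not show how often an active Obp gene would be listed at 0. The family thus held a larger share of genes listed at 0 than the table as a whole, together with 3 genes over 100 FPKM.

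**Figure D1:**
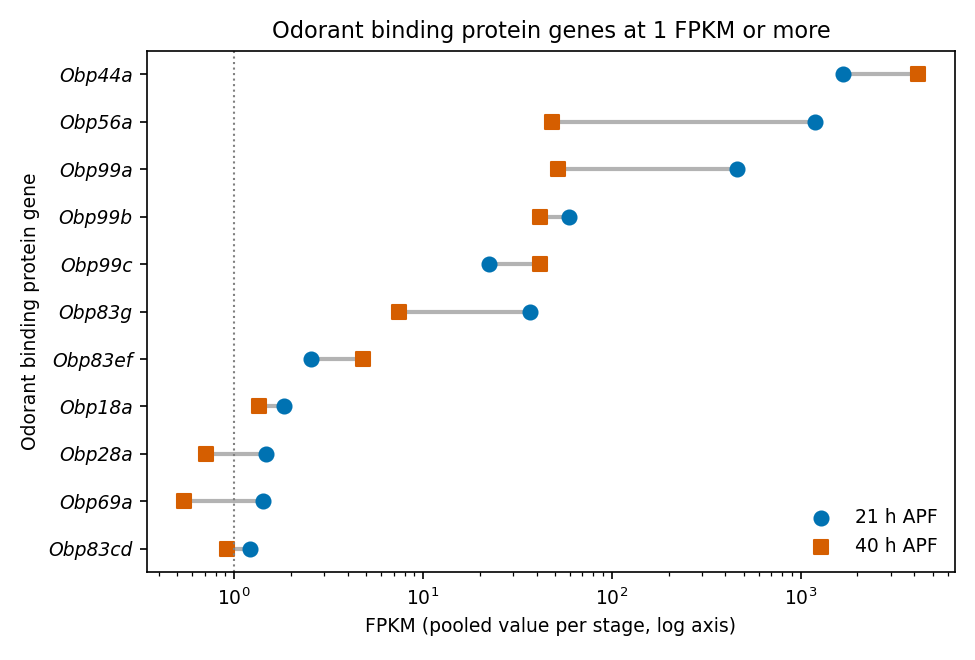
FPKM on a log axis for the 11 Obp genes at 1 FPKM or more, with a circle for the pooled value at 21 h APF and a square for that at 40 h APF; the dotted line marks 1 FPKM and there are no error bars because the table has no replicate values. Obp44a lies farthest right at both stages, at 1677 and 4185 FPKM, and Obp56a and Obp99a have the widest gaps between stages.

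Obp44a was the most abundant member at both stages. In the fly brain its product is known as a fatty acid binding protein secreted by astrocyte-like glia. Its level was 1677 FPKM at 21 h against 4185 FPKM at 40 h, which is 2.50-fold higher at 40 h. On the scale used for all genes, log2((FPKM at 40 h + 0.1)/(FPKM at 21 h + 0.1)), the difference was 1.32. Its rank among all genes by FPKM went from 29 at 21 h to 5 at 40 h. Among the 93 genes at 1000 FPKM or more at 21 h, no other gene had a higher ratio of 40 h to 21 h, and 88.7% of the 9828 genes at 1 FPKM or more had a lower one.

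Obp44a (FBgn0033268) lies on chromosome arm 2R from 8134170 to 8135315 on the minus strand in BDGP6 and encodes 143 residues. Its exons cover 1076 bases, of which 205 (19.1%) overlap an exon of Pabp2 on the other strand. Whether the counting used strand is not given in the sources used here, so fragments from the overlap may have been shared between these genes. Pabp2, a nuclear poly(A) binding protein gene, was at 117 FPKM at 21 h against 91.7 FPKM at 40 h, well under Obp44a and lower at the later stage.

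Obp56a went the other way and had the widest difference of the family. Its level was 1185 FPKM at 21 h against 48.2 FPKM at 40 h, which is 24.6-fold lower at 40 h, with a log2 ratio of −4.62. Only 0.824% of the genes at 1 FPKM or more had a lower ratio. Its rank fell from 61 to 2126. Of the 93 genes at 1000 FPKM or more at 21 h, 7 had a lower ratio than Obp56a. Obp56a (FBgn0034468) lies on 2R from 19697723 to 19698508 on the plus strand and encodes 139 residues. Its exons overlap no exon of another gene of the table.

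Obp99a was the next most abundant member at 21 h and was also lower at 40 h. Its level was 459 FPKM at 21 h against 52.2 FPKM at 40 h, which is 8.78-fold lower, with a log2 ratio of −3.13. Of the 820 genes at 100 FPKM or more at 21 h, 28 had a lower ratio than Obp99a and 21 had a lower ratio than Obp56a. Both genes therefore stood among the most reduced of the genes abundant at 21 h. That set was chosen by the 21 h level, which itself favours lower ratios, so this standing is a description only. Obp99a (FBgn0039678) lies on 3R from 29671657 to 29672334 on the plus strand and encodes 142 residues.

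The other genes at the right end of 3R behaved differently from Obp99a. Obp99b, a gene known from the fat body of the head, was at 59.7 FPKM at 21 h against 41.9 FPKM at 40 h, a log2 ratio of −0.51. Obp99c was at 22.3 FPKM at 21 h against 41.8 FPKM at 40 h, a log2 ratio of 0.90 and 1.87-fold higher. Neither passed 2-fold, and the pair ended at nearly the same level. Obp99a was 7.69 times the level of Obp99b at 21 h and 1.25 times at 40 h. Against Obp99c the corresponding ratios were 20.6 and 1.25, so these 3 genes, spread over a wide range at 21 h, lay close together at 40 h. Obp99d, the remaining gene of the group, was at 0.742 FPKM at 21 h against 0.626 FPKM at 40 h, although it lies only 1249 bases from Obp99b.

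The 3 genes Obp83cd, Obp83ef and Obp83g lie side by side on 3R from 6108134 to 6112302 and moved in different directions. Obp83g was at 36.8 FPKM at 21 h against 7.49 FPKM at 40 h, which is 4.91-fold lower, with a log2 ratio of −2.28. Obp83ef was at 2.57 FPKM at 21 h against 4.80 FPKM at 40 h, 1.87-fold higher and short of 2-fold. Obp83cd was at 1.22 FPKM at 21 h against 0.921 FPKM at 40 h. Obp83g and Obp83ef are 636 bases apart on the same strand, and the level of the former over the latter went from 14.3 to 1.56. Obp83cd and Obp83ef each encode a longer protein, of 242 and 245 residues, known to carry a pair of odorant binding protein domains in a row. They face each other on opposite strands and share 92 exon bases, 10.2% of those of each, so part of either value may come from the other gene.

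The remaining 3 genes at 1 FPKM or more stayed under 2 FPKM at both stages. Obp18a was at 1.84 FPKM at 21 h against 1.35 FPKM at 40 h. Obp28a, first isolated from the antenna, was at 1.47 FPKM at 21 h against 0.714 FPKM at 40 h, 2.06-fold lower in plain FPKM but with a log2 ratio of −0.95 once 0.1 FPKM was added, just inside 2-fold. Obp69a, also an antennal isolate, was at 1.42 FPKM at 21 h against 0.543 FPKM at 40 h, a log2 ratio of −1.24. It is nested in CG32104, with which it shares 53 exon bases (9.71%). Obp28a, Obp69a and Obp83cd reached 1 FPKM only at 21 h and none reached it only at 40 h, so the filter itself favoured lower ratios for these 3.

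At least 2-fold on this scale separated the stages for 5 of the 11 genes at 1 FPKM or more. Obp44a was the 1 gene past 2-fold higher at 40 h, against 14.8% of all genes at 1 FPKM or more. Past 2-fold lower were 4 of 11, Obp56a, Obp99a, Obp83g and Obp69a, against 10.7% of all genes. Obp69a had passed 1 FPKM only at 21 h, the stage where it was higher, and with a pseudocount of 1 FPKM its log2 ratio was −0.65 and 3 genes were past 2-fold lower, so its place in that count shows nothing about the family. The median log2 ratio of the 11 was −0.51, beside −0.017 over all 9828 genes. With a single pooled value per stage, these counts describe the libraries and carry no error.

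**Figure D2:**
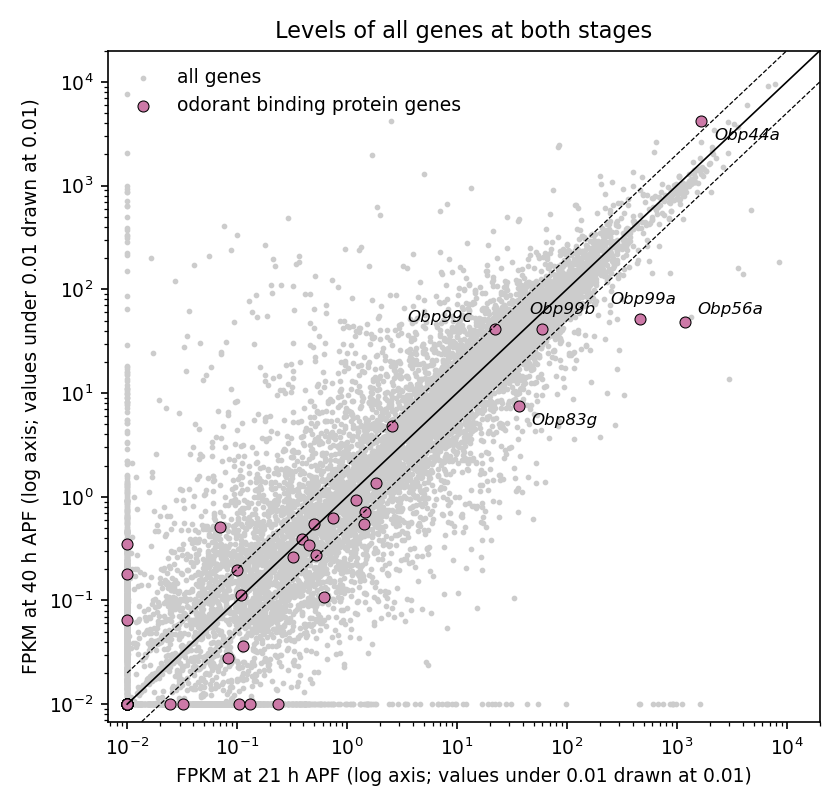
FPKM at 21 h APF against FPKM at 40 h APF on log axes for all 17649 genes (grey) and the 49 Obp genes (outlined), with the solid line at equal levels, the dashed lines at 2-fold and values under 0.01 drawn at 0.01. Obp44a lies above the upper dashed line near the top of the range, Obp56a, Obp99a and Obp83g lie under the lower one, and most other Obp genes sit at the lower left.

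Because so few genes carried the signal, the family's summed level changed in composition more than in size. The 49 genes summed to 3453 FPKM at 21 h against 4389 FPKM at 40 h, which was 0.619% and 0.780% of the summed FPKM of all genes. Without Obp44a the sum was 1775.5 FPKM at 21 h against 203.9 FPKM at 40 h, so the higher total at 40 h rested on that gene alone. Obp44a made up 48.6% of the family's sum at 21 h and 95.4% at 40 h. Obp56a made up 34.3% at 21 h and 1.10% at 40 h, and Obp99a 13.3% and 1.19%. Obp44a was 1.42 times the level of Obp56a at 21 h and 86.8 times at 40 h, so a near-even pair became a single dominant transcript. The 38 genes under 1 FPKM together gave 4.55 FPKM at 21 h against 4.04 FPKM at 40 h.

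**Figure D3:**
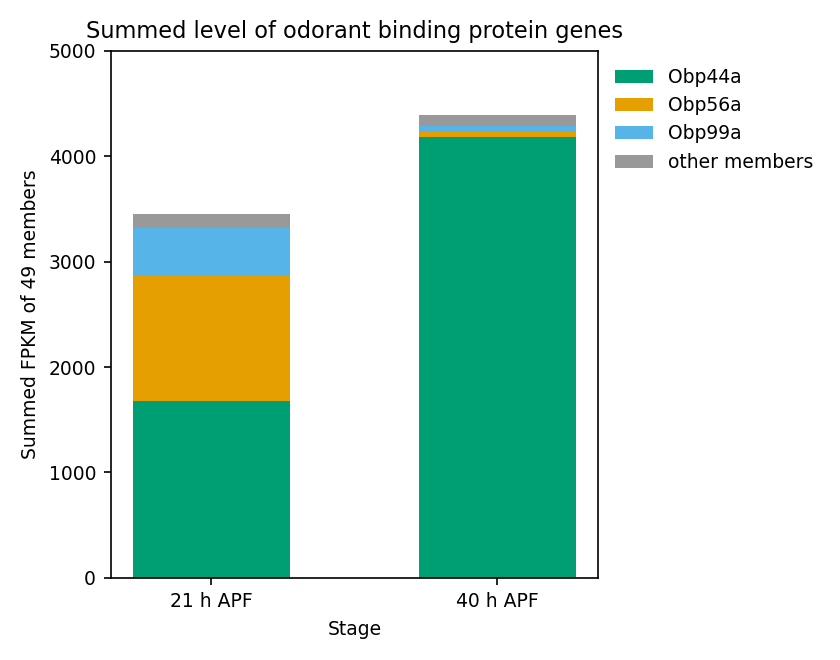
Stacked bars of the summed FPKM of the 49 Obp genes at each stage, divided into Obp44a, Obp56a, Obp99a and the other 46 genes, with no error bars because each stage has 1 pooled value. The bar at 40 h, 4389 FPKM, is nearly all Obp44a, while the bar at 21 h, 3453 FPKM, also holds large Obp56a and Obp99a segments.

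The genes named here from olfaction, taste or humidity sensing were all listed under 2 FPKM. Some were at 0 and some in the upper part of the family's own range. The antennal list was made after the values were seen, and Obp59a, Obp49a and Obp57e belong to no planned list. These values are therefore a description only. Obp83a and Obp83b, the neighbouring antennal genes once called OS-F and OS-E, were listed at 0 at both stages. Of the 6 Obp genes first isolated from the antenna, Obp19d, Obp28a, Obp69a, Obp83a, Obp83b and Obp84a, 2 reached 1 FPKM, beside 11 of 49 (22.4%) in the family. The 6 summed to 3.35 FPKM at 21 h against 2.16 FPKM at 40 h. Obp19d was at 0.0704 FPKM at 21 h against 0.513 FPKM at 40 h. Obp84a was at 0.391 FPKM at 21 h against 0.393 FPKM at 40 h, but 81.2% of its exon bases are shared with Dtwd2. The gene lush, an odorant binding protein required to detect a male pheromone, falls outside the naming rule and was at 0.0324 FPKM at 21 h against 0.0305 FPKM at 40 h. Obp59a, which is needed for humidity sensing, was at 0 at both stages. Obp49a, which acts in bitter taste, was at 0.504 FPKM at 21 h against 0.543 FPKM at 40 h, and Obp57e, linked to taste-guided host choice in *Drosophila sechellia*, at 0.0992 and 0.198 FPKM.

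None of the 7 genes known from the male reproductive tract, Obp8a, Obp22a, Obp51a, Obp56e, Obp56f, Obp56g and Obp56i, reached 1 FPKM. Their highest value was 0.520 FPKM, for Obp51a at 21 h, and 4 of the 7 were at 0 at both stages. The 12 Plus-C genes, whose proteins are longer and carry extra cysteines (Obp46a, Obp47b, Obp49a, Obp50a, Obp50b, Obp50d, Obp50e, Obp58b, Obp58c, Obp58d, Obp85a and Obp93a), were also all under 1 FPKM. Their highest value was 0.543 FPKM, for Obp49a at 40 h, and 7 of the 12 were at 0 at both stages. Thus no gene of either group was among the 11. In the whole family, 38 of 49 genes were under 1 FPKM and 18 (36.7%) were at 0 at both stages. Both lists were made after the values were seen, so these counts are a description only.

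The 20 genes above 0 but under 1 FPKM had a higher-stage value between 0.0244 FPKM (Obp56c) and 0.742 FPKM (Obp99d), with a median of 0.216 FPKM. Of them 12 were higher at 21 h and 8 at 40 h. Obp56d was at 0.622 FPKM at 21 h against 0.107 FPKM at 40 h. Obp47a was listed at 0 at 21 h and at 0.348 FPKM at 40 h, as were Obp8a and Obp85a at lower values, and Obp57b, Obp58b, Obp56h, Obp22a and Obp56c were listed at 0 only at 40 h. The other genes in this range were Obp19c, Obp50e, Obp57c, Obp73a and Obp93a, the last sharing 83.2% of its exon bases with CG5793. Such levels rest on few fragments, and the table gives no count from which their error could be had. The 18 genes at 0 at both stages were Obp19a, Obp19b, Obp46a, Obp47b, Obp50a, Obp50b, Obp50d, Obp56b, Obp56e, Obp56f, Obp56g, Obp56i, Obp57a, Obp58c, Obp58d, Obp59a, Obp83a and Obp83b. Among these, Obp47b shares all of its exon bases with CG7741 and Obp56e shares 84.4% with an annotated antisense RNA.

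The 11 genes at 1 FPKM or more were found on every chromosome arm that carries an Obp gene, but unevenly. Joining Obp genes less than 10 kb apart gave 8 clusters that together hold 28 genes, and 3 of the clusters had a member at 1 FPKM or more. The other 21 genes stood alone, and 6 of these reached 1 FPKM (Obp18a, Obp28a, Obp44a, Obp69a, Obp99a and Obp99c). Obp99a and Obp99c count as alone by this limit, although only 13401 bases separate them. Arm 2R carries 27 of the 49 genes and 2 of the 11, whereas arm 3R carries 12 of the 49 and 6 of the 11. Obp56a heads a cluster of 6 genes, Obp56a to Obp56f, between 19697723 and 19713976 on 2R. Its nearest neighbour Obp56b is 205 bases away and was listed at 0 at both stages, and no gene of the cluster besides Obp56a passed 0.622 FPKM. A level of 1185 FPKM at 21 h was thus found for 1 gene of a tight array and not for those beside it.

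Genes of other kinds near the abundant members differed from them in level, and some had a difference between stages of the same direction. Within 5 kb of Obp44a, Lpin, a lipid phosphatase gene, was at 46.2 FPKM at 21 h against 33.8 FPKM at 40 h, Pbp49 at 28.6 and 21.1 FPKM, CG42516 at 0.208 and 0.376 FPKM and Socs44A at 13.6 and 15.7 FPKM. None of these passed 2-fold. Near Obp99a, Bub3, a spindle checkpoint gene 1672 bases away, was at 93.9 FPKM at 21 h against 51.0 FPKM at 40 h, and Cap-D2, a condensin subunit gene 3316 bases away, was at 11.3 and 2.82 FPKM, both lower at 40 h like Obp99a. The 4 ppk genes near Obp99a, of a family of sodium channels, were all under 1 FPKM. The largest difference beside a member was at CG15506, 1766 bases from Obp99b, with 0.365 FPKM at 21 h against 209 FPKM at 40 h, whereas Obp99b itself stayed within 2-fold. Obp99c shares 23 exon bases (3.44%) with Gycalpha99B, a guanylyl cyclase subunit gene, which was at 3.43 FPKM at 21 h against 6.87 FPKM at 40 h, a log2 ratio of 0.98 beside 0.90 for Obp99c. Also within 5 kb of Obp99c, CG7582 was at 2.92 FPKM at 21 h against 14.6 FPKM at 40 h, higher like Obp99c, and dmrt99B was at 1.66 and 0.617 FPKM, lower at 40 h.

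The proteins of the 11 genes at 1 FPKM or more had 128 to 245 residues with a median of 146, and those of the 38 others had 117 to 259 with a median of 167, so their ranges overlapped. The exons of the 11 genes covered 546 to 1076 bases with a median of 610.0, and those of the 38 others 398 to 1648 with a median of 644.0, again with overlapping ranges.

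The chemoreceptor families, which act beside odorant binding proteins in sensilla, had no comparably abundant gene. Of 60 Or genes (odorant receptors), 3 reached 1 FPKM (5%), and the highest was Or43b with 11.1 FPKM at 21 h against 9.22 FPKM at 40 h. Of 60 Gr genes (gustatory receptors), 10 did (16.7%), with Gr64a highest at 12.5 and 11.9 FPKM. Of 66 Ir genes (ionotropic receptors), 5 did (7.58%), with Ir62a highest at 6.11 and 10.3 FPKM. The median of the higher-stage value was 0.114 FPKM for the Obp genes, 0.0497 for Or, 0.0508 for Gr and 0.0213 for Ir genes, against 2.49 FPKM for all genes. No Or, Gr or Ir gene reached 100 FPKM, against 3 Obp genes, so the families were alike in their many low genes and differed at the upper end. These shares were not tested, since the genes of a family are not replicates.

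**Figure D4:**
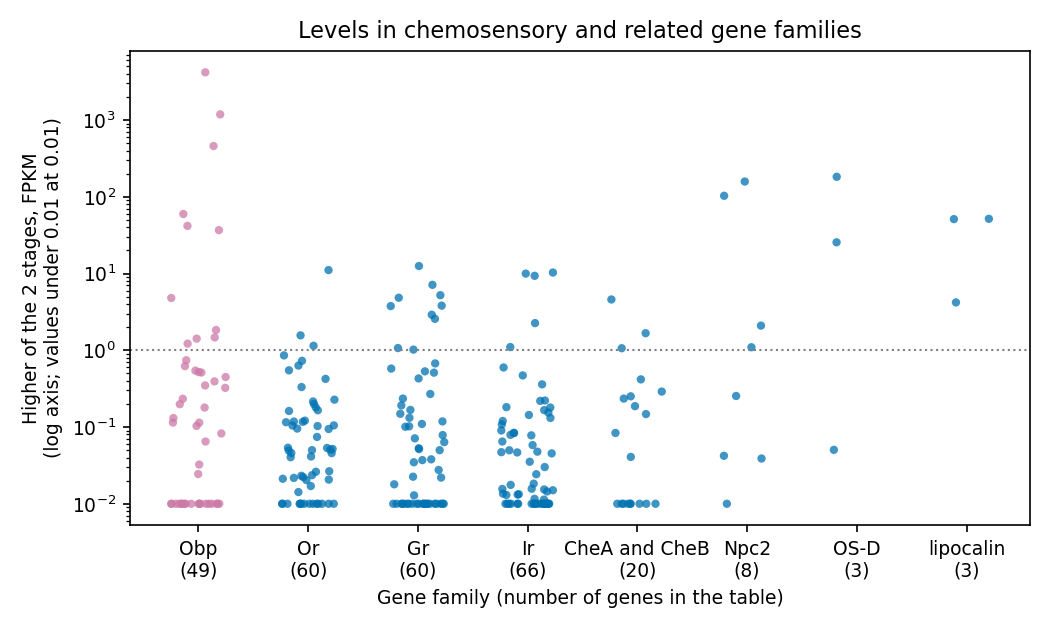
Higher of the 21 h and 40 h FPKM values on a log axis for each gene of 8 families, 1 point per gene, spread sideways for visibility, with values under 0.01 drawn at 0.01 and the dotted line at 1 FPKM. Most Obp, Or, Gr and Ir genes lie under the line, and 3 Obp points lie above 100 FPKM where no Or, Gr or Ir gene does.

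The cell types in a whole eye were followed by marker genes. In RNA from a tissue, fewer cells of a type and less RNA per cell cannot be told apart. This holds for the marker genes too. The 6 genes listed for the eye all reached 1 FPKM, as did 55.7% of all genes. Among the 6 were gl (235 FPKM at 21 h, 132 FPKM at 40 h) and elav (84.9 and 89.6 FPKM). Whether each is limited to the eye was not examined. Markers of olfactory neurons were low. Orco, the co-receptor of odorant receptors, was at 0.108 FPKM at 21 h against 0.227 FPKM at 40 h. Of 8 such markers 1 reached 1 FPKM, Ir25a, at 1.10 FPKM at 21 h against 0.190 FPKM at 40 h. The 8 values summed to 1.83 FPKM at 21 h against 1.44 FPKM at 40 h. Whether these genes are active in the antenna at these stages was not examined, and the presence of antennal tissue was not tested.

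Some glial markers were higher at 40 h, as Obp44a was, and others were level. Of the 7 markers, all at 1 FPKM or more, 4 were at least 2-fold higher at 40 h, against 14.8% of all genes at that level, and their sum was 280.0 FPKM at 21 h against 397.1 FPKM at 40 h. Among these, alrm, a marker of astrocytes, was at 1.89 FPKM at 21 h against 23.2 FPKM at 40 h, and Eaat1, a glial glutamate transporter gene, at 5.30 and 22.3 FPKM. The pan-glial gene repo was level, at 40.5 FPKM at 21 h against 40.4 FPKM at 40 h, and moody and nrv2 had log2 ratios of 0.03 and 0.30. The markers listed for support cells of sensory bristles were mixed. Among them nompA, a matrix gene of their sheath cell, was at 1.04 FPKM at 21 h against 43.2 FPKM at 40 h. Lower at 40 h were sv (56.9 and 35.2 FPKM), Su(H) (32.7 and 18.5 FPKM) and pros (23.4 and 15.8 FPKM), and Sox15 was at 2.88 and 3.20 FPKM. The list as a whole summed to 116.9 and 115.8 FPKM. Su(H) is also required for Notch signaling, which the paper describes in other cells of the eye. Whether sv and pros are limited to support cells in the eye was not examined. That sum and the lower values therefore cannot stand for these support cells alone. The part of either cell type in the Obp44a level was not tested.

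Fat body markers were low but present, and most blood cell markers were under 1 FPKM. Of 10 fat body genes, 8 reached 1 FPKM, with a sum of 73.1 FPKM at 21 h against 55.8 FPKM at 40 h, beside the lower value of Obp99b at 40 h. Yp3 went the other way, at 2.56 FPKM at 21 h against 6.71 FPKM at 40 h. Its log2 ratio of 1.36 made it the only fat body gene past 2-fold on that scale. The gene apolpp was also higher at 40 h, at 8.19 and 9.33 FPKM, and the other fat body genes were lower. The larval storage protein gene Lsp2 was at 28.5 FPKM at 21 h against 14.5 FPKM at 40 h. Of 7 hemocyte genes, 2 reached 1 FPKM, and their sum went from 4.68 to 56.1 FPKM through Pxn, a basement membrane peroxidase gene, at 1.92 and 53.4 FPKM, while Hml was at 0.373 and 0.220 FPKM, eater at 0.188 and 0.0442 FPKM, and He was listed at 0. The part of these cell types in the levels of the Obp genes was not tested.

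**Figure D5:**
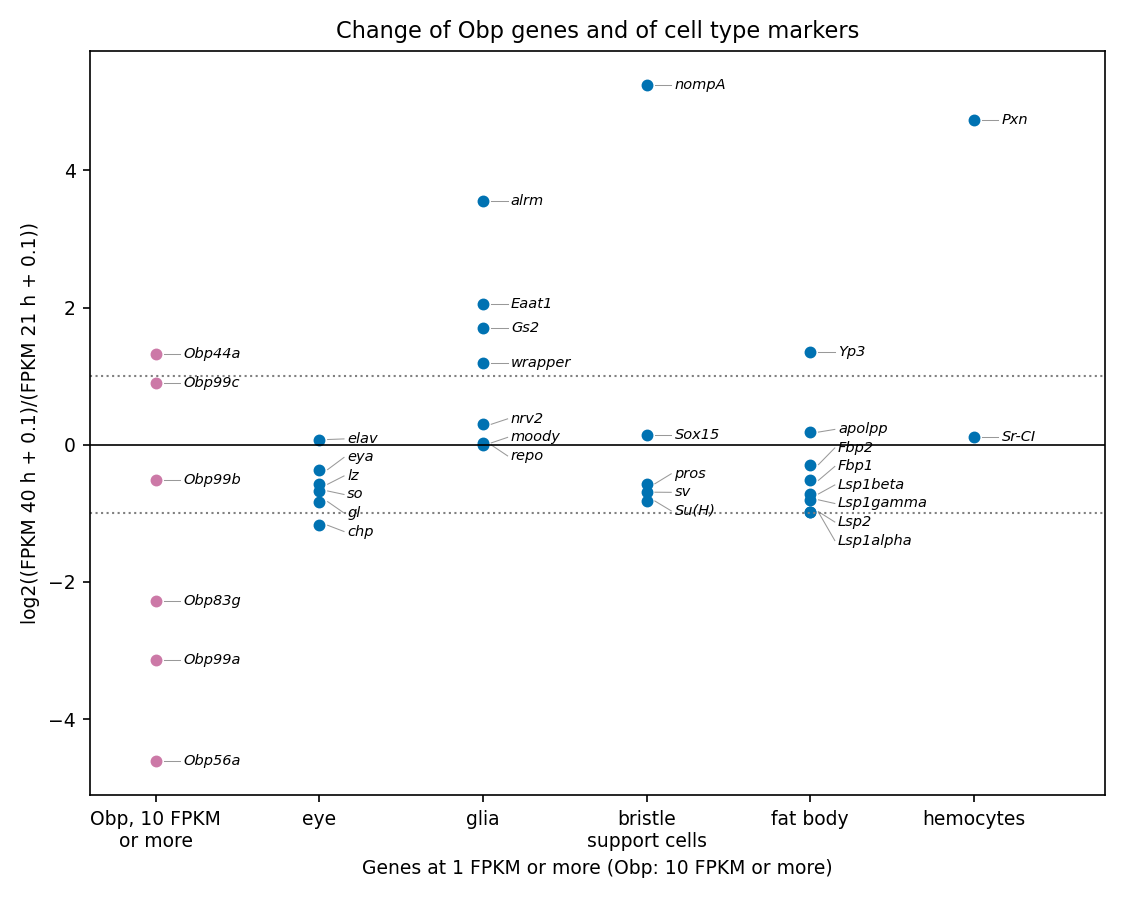
Difference between stages as log2((FPKM at 40 h + 0.1)/(FPKM at 21 h + 0.1)), 1 point per gene, for the 6 Obp genes at 10 FPKM or more and for the marker genes at 1 FPKM or more of 5 cell types, with dotted lines at 2-fold. The Obp genes run from −4.62 (Obp56a) to 1.32 (Obp44a). Above the upper line lie some glial markers, such as alrm at 3.55, and also nompA at 5.25, Pxn at 4.73 and Yp3 at 1.36. The glial markers repo, moody and nrv2 lie between the dotted lines.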

How the data were processed

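RNA from whole pupal eyes was sequenced at 21 and 40 h APF, in 6 libraries. The authors aligned paired reads with Bowtie2 to BDGP6 and derived levels with Cuffdiff, using its geometric scaling between libraries and its correction for sequence bias (versions not given in the sources used here), and deposited 1 table of FPKM with 1 pooled value per gene and stage. Bowtie2 does not split reads across introns, which can lower the FPKM of genes with many short exons. The table's fold change, test, p-value and q-value columns hold the authors' own comparison and were not used.

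Samples were grouped by the stage in the labels. Stages were compared as log2((FPKM at 40 h + 0.1)/(FPKM at 21 h + 0.1)) over all genes, and genes with at least 1 FPKM at either stage were counted as at least 2-fold higher or lower. No test was possible, and depth is unknown from the table. Every member at 1 FPKM or more was named, those at 10 FPKM or more or past 2-fold in full, the others in groups; the highest gene of each receptor family and neighbours within 5 kb of a member at 10 FPKM or more could be named. Members and lists were chosen with earlier results of these data known, and the antennal, reproductive tract and Plus-C lists were added after the values were seen. Of the markers listed for trachea, none reached 1 FPKM, and dys was not analysed here; of 4 muscle genes, 3 did, with a sum of 0.972 FPKM at 21 h and 6.55 FPKM at 40 h. Gene positions, exons and coding lengths came from Ensembl 115. No sequence table was used here, so no protein or promoter sequence was examined. Python 3.11.15, numpy 2.4.6, pandas 2.3.3 and matplotlib 3.10.9 were used, and the scripts were tested on simulated data. Alternatives were other minimum levels, pseudocounts, fold limits and scalings, and leaving out members with shared exons.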

Additional observations from a re-analysis of the deposited data

How the results depend on the processing

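No paired analysis was possible because the table gives 1 pooled value per stage, and for the same reason no replicate could be left out. With a minimum of 0.5 FPKM, 2 Obp genes were past 2-fold higher and the median log2 ratio was −0.46; with a minimum of 10 FPKM, 6 genes remained with a median of −1.40; with no minimum, 31 genes gave 4 higher, 8 lower and a median of −0.37. The median was −0.50 with a pseudocount of 1 FPKM, −0.49 centred on all genes and −0.52 with FPKM rescaled to the same sum. Leaving out members that share over 10% of their exon bases removed Obp44a, Obp83cd and Obp83ef among the 11, so that 0 genes were past 2-fold higher, with a median of −1.09. A limit of 1.5-fold gave 3 higher and a limit of 4-fold gave 0. The summed level of the family was 936 FPKM higher at 40 h, but the change was −1571.6 FPKM without Obp44a and −434.6 FPKM without Obp44a and Obp56a, alternatives chosen after seeing the data. Of the 11 genes, 0 changed direction under another pseudocount or scaling; the largest shift was that of Obp69a, from −1.24 to −0.65 with a pseudocount of 1 FPKM. Pooled values with no depth leave the error of each level unknown.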

Other observations

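Other families of small secreted carrier proteins held genes at levels similar to those of the middle Obp genes. All 3 lipocalin genes reached 1 FPKM and were higher at 40 h: NLaz was at 22.9 FPKM at 21 h against 51.6 FPKM at 40 h, GLaz at 17.8 and 51.2 FPKM, and Karl at 2.35 and 4.2 FPKM. Of 8 Npc2 genes, which encode sterol-binding proteins, 4 reached 1 FPKM. Npc2b was at 38.9 FPKM at 21 h against 158 FPKM at 40 h, Npc2a at 78.7 and 103 FPKM, Npc2g at 1.09 FPKM at both stages, and Npc2f at 2.10 and 0.790 FPKM. Among the 3 genes of the OS-D family of chemosensory proteins, EbpIII was at 182 FPKM at 21 h against 136 FPKM at 40 h, Phk-3 at 25.5 and 5.05 FPKM, and a10 was listed at 0 at 21 h and at 0.0505 FPKM at 40 h. The carrier families thus did not move as a block: Npc2b and the lipocalins NLaz and GLaz were past 2-fold higher with Obp44a, and Phk-3 was past 2-fold lower with Obp56a, Obp99a and Obp83g. Npc2f was also past 2-fold lower, but it reached 1 FPKM only at 21 h, the stage where it was higher, so it is not weighed here.

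Of 20 CheA and CheB genes, which resemble lipid carriers and are known from taste bristles, 3 reached 1 FPKM and the highest was CheB42c, at 1.13 FPKM at 21 h against 4.59 FPKM at 40 h. Snmp1, a membrane protein gene that acts with lush in pheromone detection, was at 0.0496 FPKM at 21 h and listed at 0 at 40 h, and Snmp2 was at 0.132 and 0.0471 FPKM.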
